A study of Homo sapiens with 3 samples.

Results

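Bone morphogenetic proteins (BMPs) are secreted ligands of the TGF-beta family. They bind paired type I and type II receptors, which phosphorylate SMAD1, SMAD5 and SMAD9, and these enter the nucleus with SMAD4 and bind DNA. The classic target genes are the ID genes, whose products bind helix-loop-helix transcription factors and keep them off DNA, and the feedback inhibitors SMAD6, SMAD7 and BAMBI. In mouse embryonic stem cells BMP4 acts with LIF to hold back differentiation through Id genes, and in primed human embryonic stem cells added BMP4 drives differentiation. EP300 is a histone acetyltransferase and coactivator that SMAD complexes can recruit, and its peaks mark promoters and candidate enhancers.

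Here EP300 peaks were described at 10 genes of this pathway, taken by gene name from the deposited peak tables. They are the ligand genes BMP2, BMP4 and BMP7, the target genes ID1, ID2, ID3 and ID4, and the feedback inhibitor genes SMAD6, SMAD7 and BAMBI, out of 19974 protein-coding genes. The 2 EP300 samples were chromatin immunoprecipitations from wild-type H9 cells, an established human embryonic stem cell line, and 1 further sample of the same cells was an input without antibody. All cells were kept naive in PXGL, which is N2B27 medium with PD0325901, XAV939, Go 6983 and human LIF at 10 ng/mL, on mouse embryonic fibroblasts, and were fixed in 1% formaldehyde for 10 min. No sample had a perturbed pathway or added BMP, so the data describe 1 condition. The labels do not tie the EP300 samples to separate cultures, so their spread may be technical, and they do not say whether feeder cells were removed. Peak tables hold no expression values, so neither the naive state nor the activity of these genes was tested here.

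The tables held 65276 peaks in replicate 1 and 64896 in replicate 2 on chromosomes 1 to 22 and X, once rows of the same interval were joined. Of these, 45 peaks in replicate 1 and 45 in replicate 2 carried the name of 1 of the 10 genes. Peak strength is the fold enrichment at the summit, a ratio that the authors' peak caller gave, and its percentile is taken within the list of that replicate. Peaks that met one in the second list over 1 bp or more are called shared. Of the 10 genes' peaks, 75.6% were shared in replicate 1 (34 of 45, Wilson 95% interval 61.3 to 85.8) and 77.8% in replicate 2 (35 of 45, 63.7 to 87.5), against 74.5% and 73.9% of all peaks. The shared peaks merged into 34 regions, 18 at promoters and 16 distal. A promoter peak lay within 3 kb of a transcript start in the authors' annotation, and any other peak is called distal.

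The promoter sequences that the results turn on are shown first, each as the 250 bases before the RefSeq start on the strand of the gene (GRCh38.p14). RefSeq windows were matched for 8 of the 10 genes, in 12 windows, and BMP2 and BMP7 had no entry. Capitals mark the GC-rich SMAD1/5 element GGCGCC and the SMAD box GTCT, read on both strands, so that the box also appears as AGAC. ID1 is shown because its start lay at the edge of a peak in replicate 1, and ID2 because its RefSeq start had no peak. SMAD6 is shown for a pair of abutting SMAD boxes under a broad peak. SMAD7 and BAMBI are shown because the bases before their starts lay in a gap between neighbouring peaks.
ID1, chr20:31605039-31605288, plus strand: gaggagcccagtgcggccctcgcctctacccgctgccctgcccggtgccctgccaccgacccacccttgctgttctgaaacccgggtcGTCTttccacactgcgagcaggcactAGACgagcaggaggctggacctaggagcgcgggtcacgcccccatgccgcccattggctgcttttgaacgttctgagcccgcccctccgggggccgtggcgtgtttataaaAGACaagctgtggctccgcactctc
ID2, chr2:8681806-8682055, plus strand: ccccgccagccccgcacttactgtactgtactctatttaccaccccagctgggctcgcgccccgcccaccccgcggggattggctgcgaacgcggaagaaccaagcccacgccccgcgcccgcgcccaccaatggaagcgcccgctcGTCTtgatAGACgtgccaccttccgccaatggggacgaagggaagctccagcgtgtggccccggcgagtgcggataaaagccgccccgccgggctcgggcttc
SMAD6, chr15:66701986-66702235, plus strand: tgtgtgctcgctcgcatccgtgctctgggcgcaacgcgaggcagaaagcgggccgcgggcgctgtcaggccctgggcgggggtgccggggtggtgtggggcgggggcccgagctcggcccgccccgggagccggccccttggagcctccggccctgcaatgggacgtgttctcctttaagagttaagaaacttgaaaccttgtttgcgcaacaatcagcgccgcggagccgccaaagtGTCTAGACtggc
SMAD7, chr18:48950966-48951215, minus strand: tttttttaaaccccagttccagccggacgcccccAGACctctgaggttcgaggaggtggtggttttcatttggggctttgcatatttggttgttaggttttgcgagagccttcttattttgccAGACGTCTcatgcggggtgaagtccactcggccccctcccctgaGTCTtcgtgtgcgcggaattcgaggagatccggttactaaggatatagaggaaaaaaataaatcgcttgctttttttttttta
BAMBI, chr10:28677271-28677520, plus strand: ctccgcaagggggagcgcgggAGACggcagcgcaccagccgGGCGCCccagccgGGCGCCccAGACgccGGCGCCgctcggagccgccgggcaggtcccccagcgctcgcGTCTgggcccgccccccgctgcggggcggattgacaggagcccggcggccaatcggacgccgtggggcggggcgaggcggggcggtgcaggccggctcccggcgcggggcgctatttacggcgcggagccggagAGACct

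All 10 genes had a promoter peak shared by both replicates, and all 10 had one within 1 kb of an annotated start. Such peaks are common: 66.9% of coding genes had a shared promoter peak, and 65.4% had one within 1 kb. No test was made, because the genes were chosen as a group and the study has no second condition. The strength of the strongest promoter peak told the genes apart more than its presence did. Its median over the 10 genes was 10.4 in replicate 1 and 10.2 in replicate 2, against 8.93 and 9.09 over all coding genes with a shared promoter peak. In replicate 1, 7 of the 10 genes lay above the coding gene median, and in replicate 2, 6 did.

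**Figure D1:**
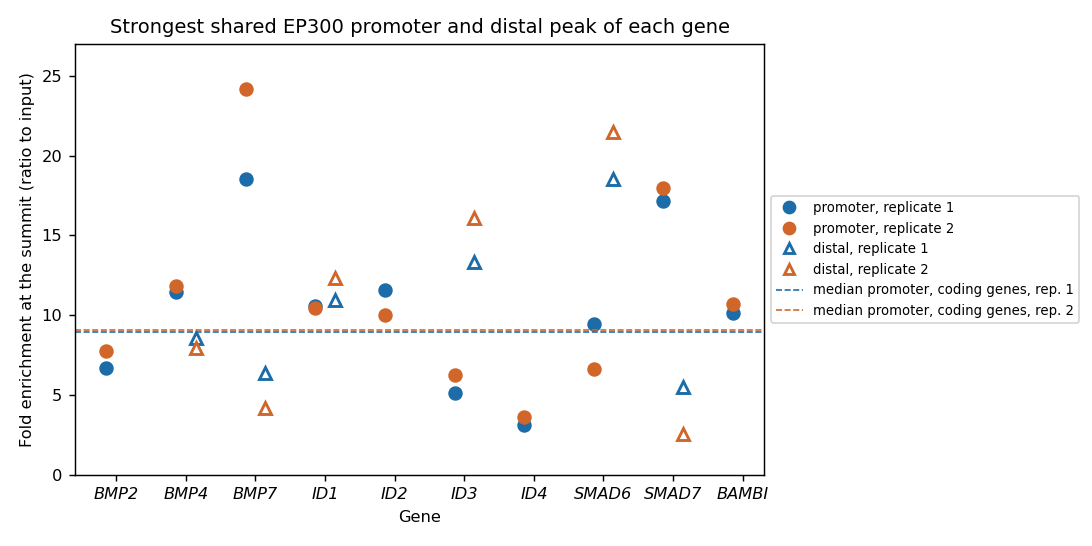
Fold enrichment at the summit (ratio, linear axis) per gene and replicate. Filled circles are the strongest shared promoter peak and open triangles the strongest shared distal region. Dashed lines are the medians of the strongest promoter peak over coding genes with a shared promoter peak, 8.93 and 9.09. The axis label reads ratio to input, but how the caller formed the ratio is not given in the sources used here. By highest summit, BMP7 and SMAD7 have the highest promoter values in both replicates, and at ID1, ID3 and SMAD6 the distal value lies above the promoter value.

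By the highest summit of each peak, BMP7 had the highest promoter fold enrichment, 21.4 ± 4.0 (SD, n = 2), and SMAD7 came next with 17.6 ± 0.57. With the summits of a peak averaged instead, these genes changed places, at 12.3 for BMP7 and 15.9 for SMAD7. BMP4 averaged 11.6 ± 0.27, ID2 10.8 ± 1.1, ID1 10.5 ± 0.079 and BAMBI 10.4 ± 0.38. Each of these 4 overlapped its neighbour in the order in the range of its replicate values, but the ID2 values came from a different peak in each replicate. The ID2 peak at the start of the longer transcript, 10.5 and 10.0, did not overlap the BMP4 range. SMAD6 averaged 8.03 ± 2.0 and BMP2 7.23 ± 0.72, and their ranges overlapped as well. ID3, at 5.70 ± 0.82, and ID4, at 3.37 ± 0.32, were the lowest in both replicates and did not overlap each other. ID3 did not overlap BMP2 by highest fold enrichment, but it did when the BMP2 peak was taken by its -log10 q-value (6.02 and 5.66).

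**Figure D2:**
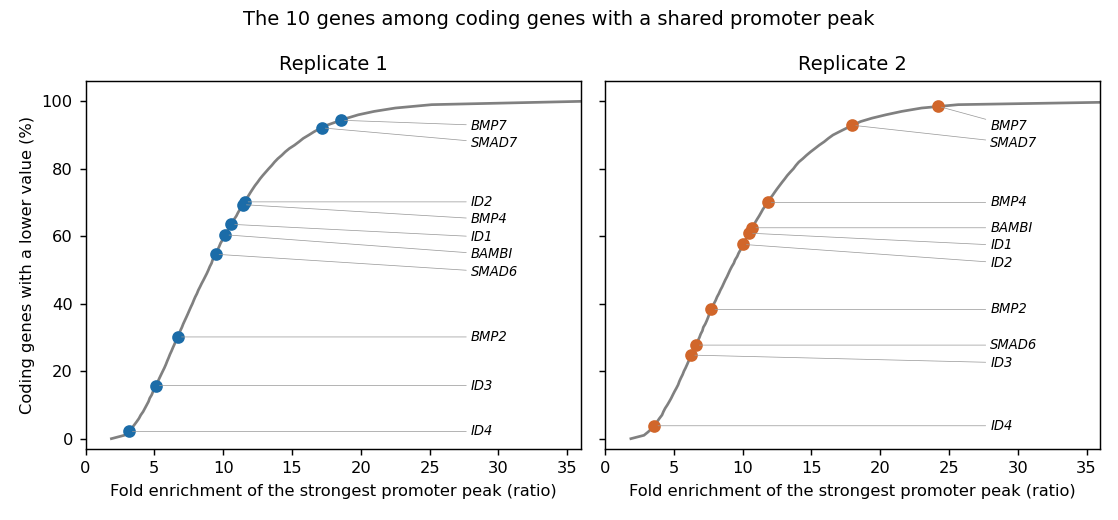
Grey curves give the share of coding genes with a shared promoter peak (%, vertical axis) that lie below a given fold enrichment of the strongest promoter peak (ratio, horizontal axis), 1 panel per replicate; points are the 10 genes. BMP7 stands above 94.4% and 98.6% of these genes in replicates 1 and 2, and ID4 above 2.14% and 3.82%.

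Of the ligand genes, BMP7, which acts in kidney and eye development among other organs, had the highest single promoter summit of the 10 genes. Its main promoter region spanned 57264035 to 57267362 on chromosome 20 (GRCh38; minus strand, start at 57266641), with fold enrichment 18.6 in replicate 1 and 24.2 in replicate 2. That placed it at percentiles 98.3 and 99.6 of all peaks. The region had 3 summits in each replicate, and the strongest lay 1211 and 1242 bp downstream of the start rather than on it. The summit nearest the start, 416 and 299 bp into the gene, reached 9.60 and 10.8. Within the gene, a further shared peak that the annotation counts as promoter stood 3.16 kb downstream of the start (4.49 and 4.63). A weak shared peak stood at an internal transcript start 22.9 kb downstream (3.10 and 3.81). Shared intronic regions stood at 34.9 kb (6.41 and 4.21) and 87.1 kb (4.496 and 3.12). These internal peaks were weaker than the main promoter region in both replicates.

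BMP4, a ligand of early patterning, had 1 broad promoter region from 53953463 to 53957379 on chromosome 14 (minus strand), the longest promoter region of the 10 genes at 3917 bp. It held 4 summits in each replicate, and the highest, 11.4 and 11.8, lay 235 and 157 bp downstream of the start. The farthest summit, 3079 and 3058 bp downstream, was the lowest, at 3.53 and 3.67. Of the 3 RefSeq windows of BMP4, the first and second were wholly under the peak. The third was partly covered, over 183 and 179 bases. Their RefSeq starts, 53955050, 53954488 and 53953395, all lay downstream of the start used for the summits, 53956811. No window therefore covered the highest summit. A distal region 6.9 kb upstream, at 53963226 to 53964197, had fold enrichment 8.58 and 7.92, below the promoter in both replicates.

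BMP2, a ligand of bone and heart development, had promoter peaks alone. The peak over its start (chromosome 20, 6767320 to 6769182, plus strand) reached 6.02 and 5.66. A second peak 2.67 kb and 2.65 kb downstream of the start, which the annotation also counts as promoter, was the stronger in both replicates at 6.71 and 7.74. No distal peak was assigned to BMP2 in either list, and the 1 shared region within 100 kb that was assigned elsewhere was weak, 3.57 and 4.17 at 70.1 kb upstream.

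**Figure D3:**
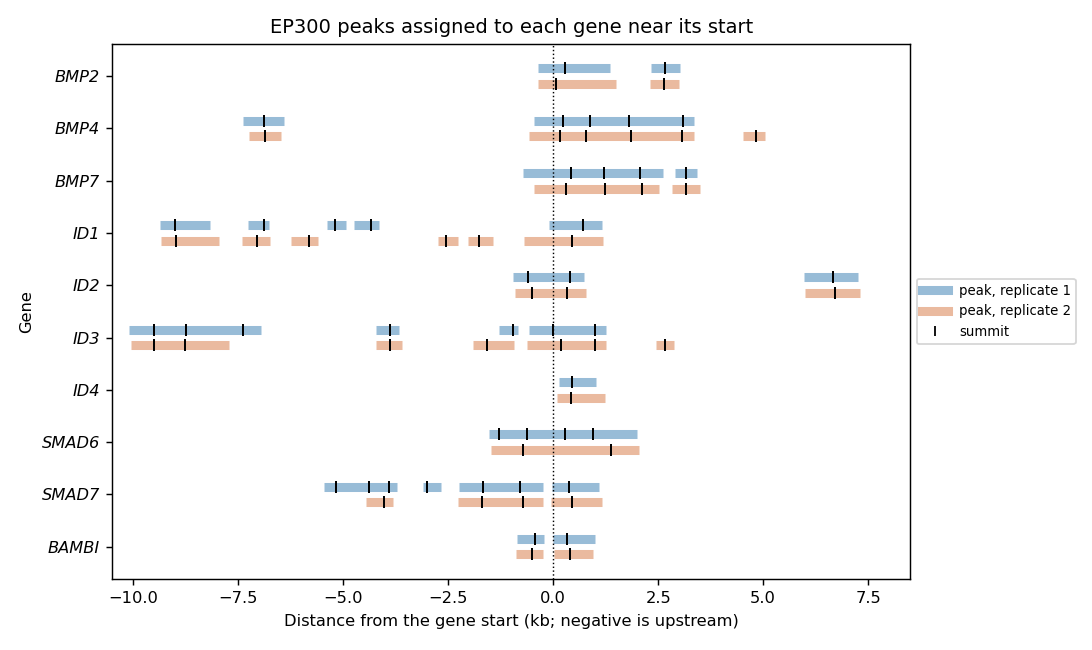
EP300 peaks assigned to each gene as bars, with summits as ticks, by distance from the gene start (kb, negative is upstream); blue is replicate 1 and orange replicate 2, and peaks outside the window are not drawn. The bars of both replicates overlap at the strong sites, but their edges can differ, as at the ID1 promoter and the ID3 upstream region. The starts of SMAD7 and BAMBI lie in or beside a gap between peaks. ID1 and ID3 show strong peaks near 9 kb upstream.

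The ID genes differed among themselves in both strength and layout. ID1, the target most used as a readout of BMP signalling, had a promoter peak of 10.6 and 10.5 (chromosome 20, 31604588 to 31606461, plus strand). The peak began 94 bp before the start in replicate 1 and 695 bp before it in replicate 2, so 150 of the 300 bases of the RefSeq window were covered in replicate 1 and all 300 in replicate 2. The 3 SMAD boxes of the window followed that edge: 1 was under the peak in replicate 1 and all 3 in replicate 2. An intergenic region 9.0 kb upstream, at 31595912 to 31597332, was slightly stronger than the promoter, at 10.98 and 12.4. A second distal region, with summits 6885 and 7050 bp upstream, was weak at 3.33 and 3.62.

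ID3 also had a stronger region upstream than at its promoter, with a wider difference. Its promoter peak on chromosome 1 (23558234 to 23560126, minus strand) reached 5.12 and 6.28, at percentiles 59.3 and 69.4. A region of 3140 bp that lay 8.8 kb upstream, at 23566464 to 23569603, reached 13.3 and 16.1, at percentiles 93.8 and 96.5. Its -log10 q-values, 115 and 150, were the highest of the 34 regions in both replicates. Weaker shared peaks lay between these sites, at 3.9 kb upstream (4.18 and 3.86) and, within the promoter limit, 949 and 1567 bp upstream (2.55 and 4.18).

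ID2 had strong peaks on either side of its coding region. One covered the start of a longer annotated transcript (chromosome 2, 8677897 to 8679632, plus strand) with fold enrichment 10.5 and 10.0. The other, at 8684829 to 8686160, reached 11.6 and 9.27, and the stronger of this pair was the second in replicate 1 and the first in replicate 2. The annotation counts the second as a promoter peak because a short internal transcript starts 2 to 3 kb before it, but it lay 368 and 385 bp past the RefSeq end of the gene. The RefSeq window of ID2, 250 bases before to 50 after its start, had no peak in either replicate, with 2225 and 2173 bases from its edge to the nearest upstream peak and 2723 and 2740 to the next downstream one. Windows without a peak are common. Of 22132 windows of coding genes, 65.4% had a peak in replicate 1 and 66.0% in replicate 2. Of the 12 windows matched here, 8 had a peak in each replicate. A distal peak 14.7 kb downstream was found in replicate 2 alone (4.31).

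ID4 was the weakest of the group. Its 1 peak (chromosome 6, 19837460 to 19838606, plus strand) reached 3.14 and 3.60, at percentiles 15.8 and 28.1 of the lists. It began 93 and 40 bases past the RefSeq window and so left the 250 bases before the start free of peaks. The -log10 q-values of this peak were 9.12 and 11.7, and it dropped out when a fold enrichment of at least 5 was asked for.

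The feedback inhibitor genes ranged from second to eighth of the 10 by highest promoter summit. SMAD7, which blocks type I receptors and recruits ubiquitin ligases to them, had its strongest region just upstream of the start (chromosome 18, 48951209 to 48953241, minus strand), at 17.2 and 18.0 and percentiles 97.6 and 97.8. A weaker peak of 5.00 and 4.36 covered the start itself, at 48949809 to 48951016. Between these lay a gap of 213 bp in replicate 1 and 192 bp in replicate 2, which ran from 243 bp to 31 and 52 bp before the start. All 4 SMAD boxes of the SMAD7 window shown above fell in this gap in both replicates. Further shared peaks were weak, at an internal start 16.8 kb downstream (3.34 and 4.78) and 53.9 kb downstream (3.92 and 3.66). A shared region near 5 kb upstream had 5.49 and 2.56, but at different summits, 5181 and 4024 bp upstream. That replicate 1 summit lay outside the replicate 2 peak.

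BAMBI, a pseudoreceptor that lacks the kinase domain, also had a gap beside its start, with the stronger peak on the gene side (chromosome 10, 28677497 to 28678516, plus strand), with fold enrichment 10.2 and 10.7, and the weaker one lay upstream at 28676632 to 28677290, with 3.39 and 4.65. The gap between these was 206 bp in replicate 1 and 280 bp in replicate 2. It held the 3 GC-rich elements of the window and 3 of its 4 SMAD boxes. The last box lay under the peak in replicate 1 and in the gap in replicate 2. A distal peak 11.6 kb downstream appeared in replicate 1 alone (3.66).

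SMAD6, which competes with SMAD4 for the BMP SMADs, had its strongest region far from the start. Its promoter region was broad, 3580 bp (chromosome 15, 66700704 to 66704283, plus strand), and reached 9.45 in replicate 1 and 6.61 in replicate 2. It held 4 summits in replicate 1 and 2 in replicate 2. The abutting boxes GTCTAGAC in its window lay under the peak in both replicates. A region 47.2 kb upstream, at 66654382 to 66655965, reached 18.6 and 21.5, at percentiles 98.3 and 99.1. It was 1 of 7 distal regions assigned to SMAD6, all in introns of the non-coding gene LINC01169 (ENSG00000259471), between 22.4 and 54.6 kb upstream. The other 6 ranged from 3.68 to 7.65 in replicate 1 and from 3.41 to 8.41 in replicate 2.

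**Figure D4:**
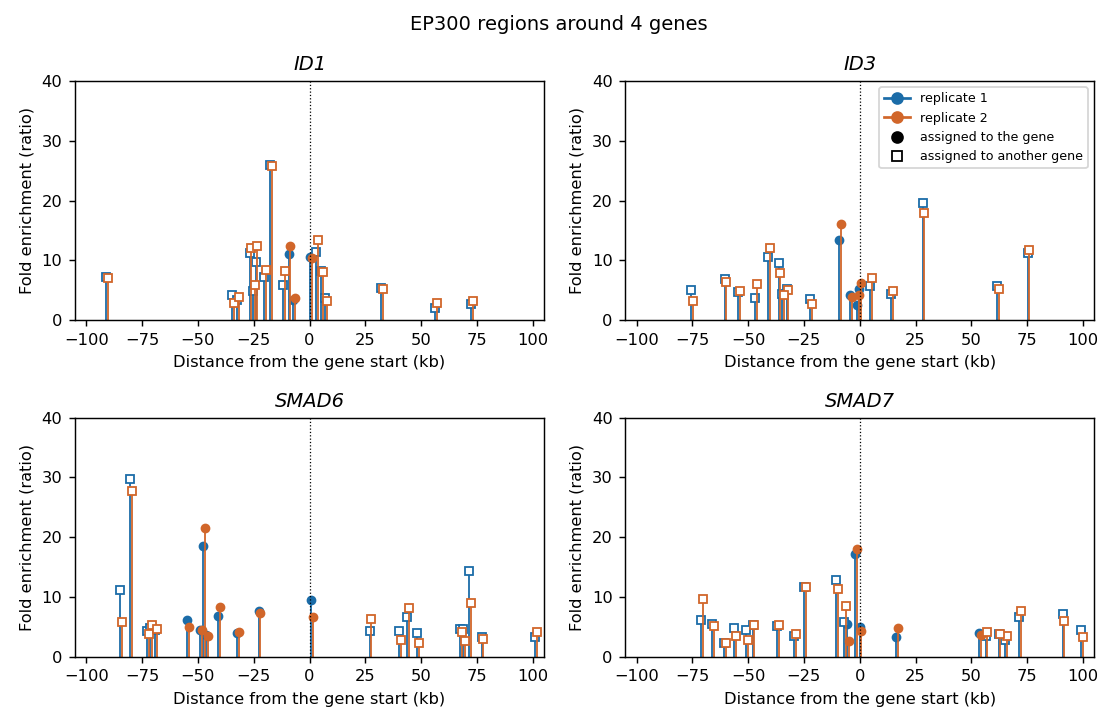
Fold enrichment (ratio, linear axis) of every shared EP300 region within 100 kb of the starts of ID1, ID3, SMAD6 and SMAD7, by distance of the replicate 1 summit from the start (kb, negative is upstream), with the replicates drawn 0.4 kb to either side; filled circles are regions assigned to the gene and open squares regions assigned to others. The highest points are regions named for other genes at ID1, ID3 and SMAD6, and the promoter region itself at SMAD7.

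Distal regions were thus unevenly spread. Of the 10 genes, 6 had at least 1 shared distal region (BMP4, BMP7, ID1, ID3, SMAD6 and SMAD7), against 20.6% of coding genes. SMAD6 had 7, BMP7, ID1, ID3 and SMAD7 had 2 each, BMP4 had 1, and the other 4 genes had none. SMAD6 was the 1 gene with 3 or more, against 4.66% of coding genes. Gene length and the spacing of genes were not matched in these counts. The replicate 1 summits of the distal regions lay between 3.9 and 87.1 kb from the start, 9 in introns and 7 in intergenic DNA. With a fold enrichment of at least 5 the count of distal regions was 7, and with a -log10 q-value of at least 5 it was 9. The distal regions of the 10 genes had median values of 5.85 and 4.32 in the 2 replicates, and those of all coding genes 4.58 and 4.58.

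Among the 6 genes with both kinds of region, the strongest distal value exceeded the strongest promoter value in both replicates at 3, namely ID1, ID3 and SMAD6. Of 3336 coding genes with both kinds, 21.7% did so. The excess was 0.401 and 1.89 in fold enrichment at ID1, 8.21 and 9.79 at ID3, and 9.12 and 14.9 at SMAD6. At BMP4, BMP7 and SMAD7 the promoter was the stronger in both replicates.

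The assignment of a peak to 1 gene leaves out most of the regions that surround these genes. By position alone, 117 shared regions reached into the 100 kb on either side of the 10 starts, and 83 of them carried other names. With a fold enrichment of at least 5 asked for in both lists, the count of regions was 57. The share of regions that carry other names was not taken over all coding genes. The median was 11.5 regions per gene, against 6 over 15251 coding genes of known strand (quartiles 3 and 11). The starts of the 10 genes were chosen by a peak, and the spacing of genes was not matched in this comparison. SMAD6 and SMAD7 had most, 22 each, then ID1 and ID3 with 18 each, ID2 with 13 and BMP7 with 10. BAMBI and ID4 had 4 each, and BMP2 and BMP4 had 3 each.

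At ID1, ID3, ID4, SMAD6 and BAMBI, some of these neighbours were stronger in both replicates than any peak assigned to the gene itself. How often this holds over all coding genes was not counted, so it is not shown to be a trait of these genes. At ID1, a region 17.4 kb upstream (31585953 to 31589235) reached 26.0 and 25.8 and was named for RNU6-384P, a U6 RNA pseudogene, and one 3.3 kb downstream of the start (31606869 to 31609768), named for the microRNA gene MIR3193, reached 11.5 and 13.5. At ID3, the strongest neighbour reached 19.6 and 17.9 at 28.6 kb and was named for E2F2, a cell cycle transcription factor gene. At ID4, a region 32.3 kb upstream, named for LNC-LBCS, reached 6.02 and 5.70. At SMAD6, a region 80.0 kb upstream named for LINC01169 (66618876 to 66622876) reached 29.8 and 27.8. At BAMBI, regions at 44.9 kb downstream (17.4 and 15.2, LINC01517) and 8.7 kb upstream (12.4 and 11.5, RNU6-1067P) exceeded its promoter. At ID2, a region 1.8 kb upstream of the longer transcript's start, named for the antisense gene ID2-AS1, had 10.4 and 9.65, under the gene's own strongest peak in each replicate. A region 95.3 kb upstream of ID2, named for LINC01814, had 8.69 and 11.7, below that peak in replicate 1 and above it in replicate 2. At BMP2, BMP4, BMP7 and SMAD7 the gene's own strongest region stayed above every neighbour in both replicates. Which gene any of these regions acts on was not tested.

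**Figure D5:**
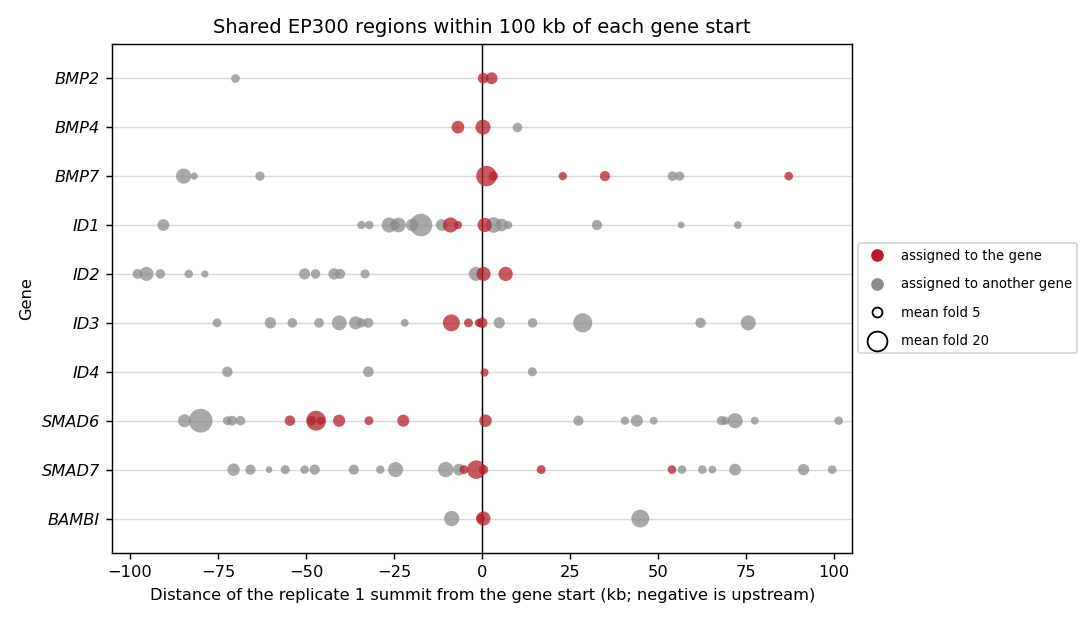
Shared EP300 regions within 100 kb of each gene start, by distance of the replicate 1 summit from the start (kb, negative is upstream), with point area proportional to the mean fold enrichment of both replicates; red regions are assigned to the gene and grey ones to another gene. SMAD6 and SMAD7 have 22 regions each, and BMP2 and BMP4 have 3 each.

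The peaks found in 1 replicate alone were mostly weak. They numbered 11 in replicate 1, with fold enrichment from 2.63 to 5.38, and 10 in replicate 2, from 2.33 to 5.11. Their median percentiles were 19.3 and 24.3, and their highest were 62.2 and 58.9. BMP7 had 3 in replicate 1, as did SMAD7, and 4 in replicate 2, and those of BMP7 all lay within the gene. None had its summit within 1 kb of the start used for its gene, but that start was itself chosen by a peak. By the annotation, 3 of the 11 and 7 of the 10 were promoter peaks. Some of these lay at the starts of other transcripts, as at BMP4, BMP7 and SMAD7.

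The promoter windows were close to those of coding genes in base content. Their GC content had a median of 64.3% (48.3 to 80.0), against 62.3% over 22156 windows of coding genes, and they held a median of 28 CpG (4 to 47), against 21. BAMBI had the highest GC content and SMAD7, in its first window, the lowest. BMP4 and SMAD7 each supplied 3 of the 12 windows, so these values and counts are over windows and not over genes. GGCGCC occurred in 2 of the 12 windows, at BAMBI and BMP4, and in 24.3% of all windows. The SMAD box GTCT occurred in all 12 and in 82.8% of all windows, so it sets no promoter apart. A composite of GGCGCC and GTCT with 5 bases between, on either strand, occurred in none of the 12 and in 0.108% of all windows, and the cAMP response element TGACGTCA in none and in 2.26%. The palindrome GTCTAGAC, searched after it was seen at SMAD6, occurred in 1 of the 12 and in 0.217% of all windows. Abutting boxes were not particular to SMAD6. The first SMAD7 window held a pair in the other order, AGACGTCT, in the gap between its peaks in both replicates. That order was not counted over all windows. A match is a string of letters in this window and not a site of binding, and the distal regions could not be searched because no genome sequence was used.

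Of the other genes of the pathway, 32 of 40 (80.0%) had a shared promoter peak, against 66.9% of coding genes, and 14 of 40 had a shared distal region, against 20.6% of coding genes. The median of their strongest promoter peaks was 7.40 and 7.98 in the 2 lists. Among the other ligands 6 of 10 had one, led by GDF5, a ligand of joint formation, at 20.4 and 20.6, then BMP6 (6.67 and 8.20) and BMP8B (7.43 and 6.45). BMP5, BMP10, BMP15 and GDF2 had no peak in either list. Of the receptors, 6 of 7 had a promoter peak, led by BMPR1B (21.1 and 26.5), ACVR2B (18.6 and 18.3) and ACVR2A (14.5 and 14.8), and the type I receptor gene ACVR1 had none.

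All 4 SMAD transducer genes had a shared promoter peak, with SMAD1 (11.2 and 13.6), SMAD5 (11.3 and 9.41) and SMAD9 (7.50 and 7.80) highest. SMURF2 (7.999 and 9.38) and SMURF1 (6.08 and 8.61), which encode ubiquitin ligases for SMADs, also had one each. Of the extracellular antagonists and modulators, 10 of 11 had one, led by the co-receptor gene RGMB (27.3 and 21.9), the activin antagonist gene FST (22.2 and 21.4) and RGMA (10.5 and 14.6), and CER1 had none. Of the other known targets, 4 of 6 had one, led by HEY2 (25.5 and 24.7), ATOH8 (12.5 and 15.2) and TBX3 (11.6 and 8.83). The homeobox genes MSX1 and DLX5 had none, DLX5 with 1 distal region. ATOH8 had 5 of the 22 distal regions of these 40 genes.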

How the data were processed

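EP300 ChIP-seq peaks of H9 cells were read from 1 table per EP300 sample. The authors deposited annotated peak tables, called per sample against input by the peak names; the input library itself was not analysed here. The submitters' processing notes name fastp 0.19.11 and GRCh38. Aligner, caller, threshold and duplicate handling: not given in the sources used here. Per the file headers, each row holds 1 summit with its fold enrichment (a ratio), -log10 p-value and -log10 q-value; the largest q-values were 0.0497 and 0.0498. Neither the deposited score, a rescaled -log10 q-value, nor the p-values were used. Read depth is unknown.

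Rows of equal interval were joined, keeping the highest fold enrichment and -log10 q-value (Python 3.11.15, pandas 2.3.3). Gene names, promoter labels and distances are the authors' ChIPseeker annotation, per the file headers. The start of a gene is that of the transcript annotated to its strongest replicate 1 peak within 1 kb. Coding genes and promoter windows (250 bases before to 50 after a start) are from RefSeq, GRCh38.p14. Wilson intervals cover counting error only. The joining and overlap steps were tested on simulated peaks. The 10 genes are all named; of the other pathway genes, up to 3 per list by mean promoter fold enrichment and each without a promoter peak are named. Genes and lists were chosen with earlier results of these data known. Alternatives were a 50% overlap, fold enrichment or -log10 q-value of at least 5, 1 replicate alone, narrower or RefSeq promoters, a limit of 100 kb and other ways to take peak strength.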

Additional observations from a re-analysis of the deposited data

How the results depend on the processing

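The counts of genes with a shared promoter peak and with a shared distal region stayed within 1.5 times their value under the alternatives tried for them. With a fold enrichment of at least 5, ID4 lost its promoter peak, which left 9 genes, and BMP7 and SMAD7 lost their distal regions, which left 4 genes. With that limit the distal regions of the 10 genes fell to 7, the regions within 100 kb to 57, and the share of replicate 2 peaks shared moved to 94.7%. With a -log10 q-value of at least 5 the distal regions fell to 9, in the same 4 genes (BMP4, ID1, ID3 and SMAD6). The median strongest promoter value, 10.5 over the 10 genes, moved to 9.05 when the summits of a joined peak were averaged, which put SMAD7 (15.9) above BMP7 (12.3), and lay between 10.2 and 10.4 with 1 replicate left out. With 1 replicate alone, distal peaks numbered 20 to 24 and regions within 100 kb 155 to 158. No paired analysis was possible because the EP300 samples form 1 group and the input, which shares only a replicate number, was not analysed here. Read depth is unknown and limits what can be said of weak or missing peaks: a peak under the threshold in either list is not shown to be absent.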
